A study of Homo sapiens with 2 samples.

Results

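Choroid plexus epithelium-like barcodes were chosen by a score on 6 marker genes, TTR, HTR2C, CLIC6, TMEM72, SLC4A5 and OTX2, in a library of single nuclei and a library of single cells from human brain organoids. Barcodes, each standing for 1 nucleus or cell, passed with more than 2000 transcripts in nuclei or more than 5000 in cells and at most 20% mitochondrial transcripts. Among them, those with at least 3 of the 6 markers detected were ranked by the summed counts of the 6 genes over all transcripts of the barcode. The first 250 of 11375 nuclei and the first 400 of 6779 cells were taken, which is 2.2% and 5.9% of those that passed. All the others, 11125 nuclei and 6379 cells, formed the reference of their library. The numbers of 250 and 400 are set by the rule, so these shares are no estimate of how much choroid plexus the organoids held.

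The study asked how the shape of an organoid bears on its development. All organoids were grown from the human embryonic stem cell line H9, an established line, so each value below rests on 1 genetic background. The library of cells pooled control organoids (CO) at days 45, 55 and 70, organoids dissociated to single cells at day 45 and reaggregated (DISS) at days 48, 55 and 70, and organoids freed of Matrigel at day 13 and embedded in 3% agarose (CONS) at day 55. The library of nuclei was described as day 45 CO, prepared either from intact organoids or after dissociation, while its treatment label reads Control/Dissociated/Embed. Both came from split-seq, a method that adds a barcode to the RNA in each of several rounds of wells until the series of wells marks 1 cell or nucleus. The library of cells held 254967545 transcripts in 1303455 barcodes and the library of nuclei 82339738 in 197446. Every barcode of a library carries 1 sample name, so condition, day and organoid of a barcode cannot be told apart here. Each library was therefore 1 sample without replicates, no test was made and no p-values are given. Intervals are 95% and cover counting error only, and SD values are between 8 sub-libraries of cells, which are technical divisions of 1 library. The 2 libraries shared 19 names among passing barcodes and 0 among the choroid plexus epithelium-like ones.

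The choroid plexus is a folded sheet of epithelium in the ventricles of the brain that makes cerebrospinal fluid. It arises from the dorsal midline of the neural tube, next to the cortical hem, under the influence of BMP and WNT signals. Its cells move ions and water from blood to fluid through pumps, cotransporters, carbonic anhydrases and aquaporin, carry hormones and vitamins, secrete proteins such as transthyretin, and bear tufts of cilia on their apical side. In brain organoids such epithelium forms beside cortex-like tissue.

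The selected genes are given first, as a description of what was chosen, with levels as counts per 1000000 pooled transcripts of a group (CPM). HTR2C, the serotonin 2C receptor gene (chromosome X from 114584078 to 114910061 of GRCh38), had 39113 and 40587 CPM in the 2 sub-libraries of nuclei and 15651 ± 882 (SD, 8 sub-libraries) in cells, compared with 1233 and 599 in the 2 references. It supplied 93.5% of the summed marker counts in nuclei and 71.7% in cells, so the rank was close to a rank by HTR2C. TTR, which encodes the thyroid hormone carrier transthyretin (chromosome 18 from 31557009 to 31598833), had 594 and 700.4 CPM in the 2 sub-libraries of nuclei and 4583 ± 1296 (SD, 8 sub-libraries) in cells, compared with 42.4 and 317 in the references. In cells the sub-libraries ran from 3875 to 7747, with 1 far above the other 7. The 2 genes thus stood in opposite order between libraries, TTR being 6.98 times as high in cells as in nuclei and HTR2C 2.54 times as high in nuclei as in cells. The references held the same order, at 7.48 and 2.06 times. CLIC6, a chloride channel protein, had 839 and 658 CPM, compared with 44.7 and 30.2 in the reference. The membrane protein gene TMEM72 had 146 and 76.1 CPM, compared with 6.51 and 3.29 in the reference. SLC4A5, a sodium bicarbonate cotransporter, had 820.1 and 644 CPM, compared with 86.9 and 74 in the reference. OTX2, a homeobox factor that the choroid plexus needs to form, had 333 and 264 CPM, compared with 26.6 and 21 in the reference.

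Of the 250 nuclei, 113 held all 6 markers, 84 held 5, 32 held 4 and 21 held 3. Of the 400 cells, these numbers were 175, 159, 53 and 13. The score fell without a gap at the limit. In nuclei the last barcode inside had 308.68 marker counts per 10000 transcripts and the first outside 308.3, and in cells the values were 137.57 and 137.51. A further 60 reference nuclei and 50 reference cells lay within 10% below the last barcode inside. The reference therefore held further barcodes with scores like those chosen. When the reference was limited to the 5902 nuclei and 762 cells that had none of the 6 genes, the log2 folds of the 20 leading genes named below were larger by a median of 3.02 in nuclei and 1.84 in cells. That reference was chosen by the absence of the same 6 genes, so larger folds were to be foreseen and are a description. Barcodes of 10 to 100 transcripts, taken as the level of free RNA, had 26.8 and 23 marker counts per 10000, while the median reference barcode had 0 and 2.99.

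**Figure D1:**
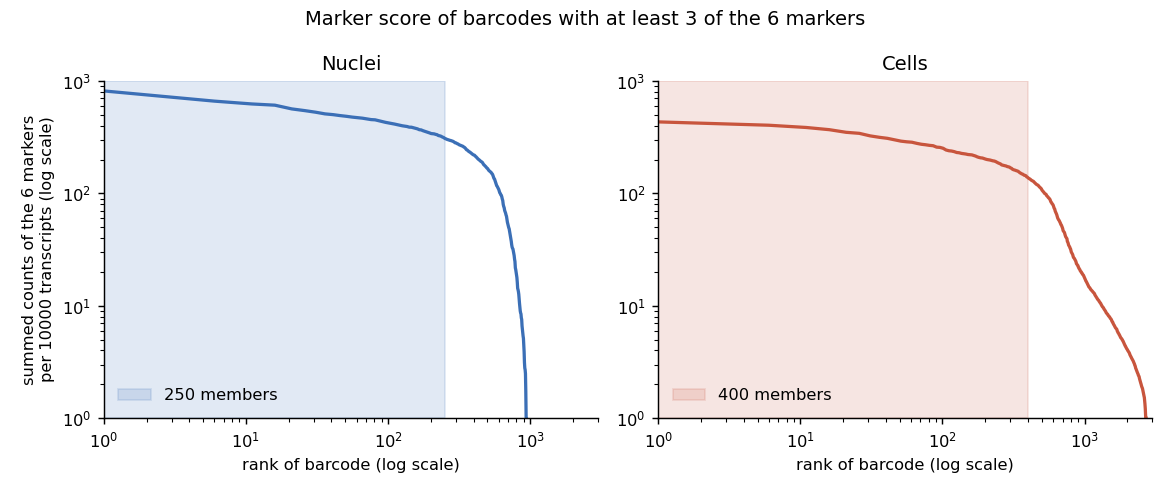
Marker score of each passing barcode with at least 3 of the 6 markers (vertical axis, summed marker counts per 10000 transcripts, log scale) against its rank (horizontal axis, log scale), for nuclei on the left and cells on the right, with the chosen barcodes shaded. The curves bend steadily and show no step at the limits, where the scores were 309 in nuclei and 138 in cells.

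The label was checked against genes the rule did not use, within barcodes that the rule chose. TRPM3, a calcium channel gene strongly expressed in choroid plexus, had 10507 and 11197 CPM in the 2 sub-libraries of nuclei and 5756 ± 415 (SD, 8 sub-libraries) in cells, compared with 657 and 427 in the references. After each barcode was thinned to 2000 transcripts, TRPM3 was detected in 100% (98.5 to 100) of nuclei and 99.2% (97.8 to 99.8) of cells, compared with 55.2% (48.8 to 61.5) of nuclei and 69.8% (65 to 74.2) of cells among hem-like, 6% (3.4 to 9.7) of nuclei and 23% (19 to 27.4) of cells among radial glia-like and 15.2% (11 to 20.3) of nuclei and 19% (15.3 to 23.2) of cells among neuron-like barcodes. These 3 are selections of equal size from the reference, made by markers of each. TTR and albumin are also made in liver, but the 9 liver and endoderm genes, ALB, AFP and APOB among them, summed to 0.861 CPM in nuclei and 2.18 in cells, with all 9 under 5 CPM. The TRPM3 and liver values did not go against the name. Not all genes looked at went with it. KCNE2 and FXYD1, known from mature choroid plexus, stayed below entry, as did TF, SLCO1C1 and ABCG2 from the lists of secreted proteins and transport. These genes, and the markers of retinal, stromal and endothelial cells that were high, are described below.

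A gene was entered when the mean of its CPM in the choroid plexus epithelium-like and the reference barcodes was at least 10. It was called higher or lower at a ratio of at least 4-fold. A gene at 4 CPM or less in 1 of these 2 groups could therefore enter only as a called gene. Calls of such genes were fixed by entry, and they are part of the counts below, those of the gene lists included. In nuclei, 629 of 10380 genes were called higher (6.06%) and 751 lower (7.24%), the 6 markers left aside. In cells, 643 of 11667 were called higher (5.51%) and 453 lower (3.88%). Of 10184 genes entered in both libraries, 486 were called higher in each (4.77%), 387 lower in each (3.8%) and 0 in opposite directions. The genes higher in both made up 77.3% of the higher calls in nuclei and 75.6% of those in cells. The genes lower in both made up 51.5% of the lower calls in nuclei and 85.4% of those in cells. Across these genes, which are not independent, log2 folds in the 2 libraries had a Pearson r of 0.927. Both libraries were searched with the same 6 genes, and r is given as a description. The median log2 fold of all genes entered was -0.22 in nuclei and -0.17 in cells. All these values describe barcodes picked by 6 correlated genes, and none is a test. The gene lists used below were chosen with earlier results of these data known. Their counts are set beside the shares of all genes as a description only.

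**Figure D2:**
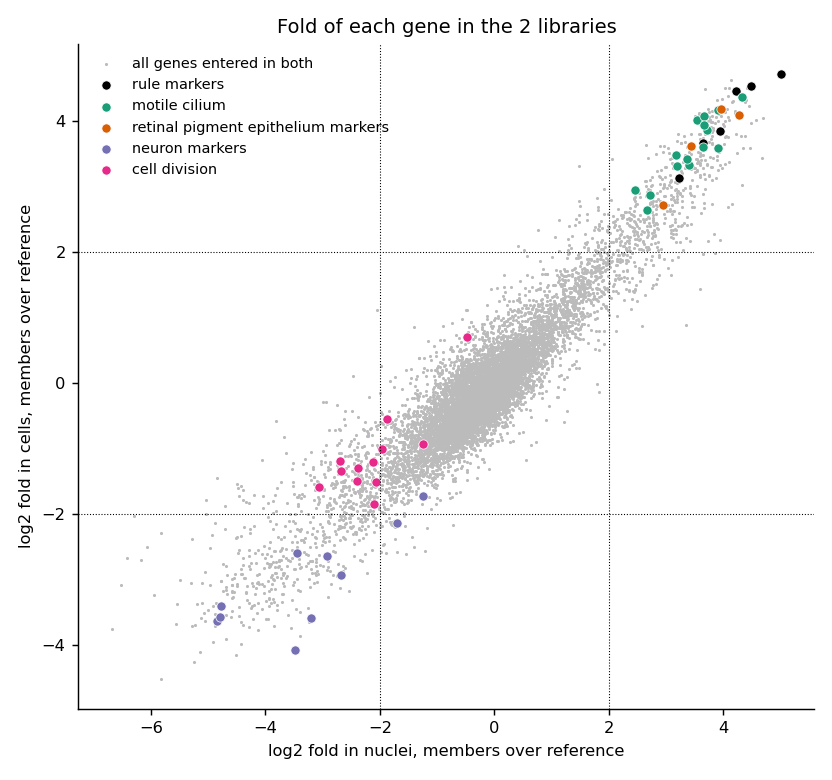
Log2 fold of choroid plexus epithelium-like over reference barcodes in nuclei (horizontal axis) and in cells (vertical axis) for the 10184 genes entered in both and the 6 markers, with dotted lines at 4-fold and colours for 5 gene lists. Motile cilium genes and the 4 retinal pigment epithelium genes entered lie at the upper right beside the markers, neuron markers at the lower left, and cell division genes reach further down in nuclei than in cells.

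Among the 321 genes higher in both libraries with at least 50 CPM in the choroid plexus epithelium-like barcodes of each, the 20 with the largest folds lay between 15.8-fold and 23.9-fold in nuclei and between 16-fold and 24.6-fold in cells. They fell into a few kinds. Transporters were SLC17A8, a vesicular glutamate transporter, SLC13A4, a sulfate transporter, SLC39A12, a zinc transporter, and ABCA4, a lipid transporter best known from photoreceptors. SLC17A8 (chromosome 12 from 100357074 to 100422055) had 137 and 142 CPM, compared with 6.45 and 6.32 in the reference. ABCA4 (chromosome 1 from 93992834 to 94121148) had 618 and 440.4 CPM, compared with 35.1 and 17.9 in the reference, which is 17.6-fold (95% interval 16.5 to 18.8) and 24.6-fold (95% interval 23.3 to 26). Receptors and channels were PRLR, the prolactin receptor, TRPV4, an osmosensitive calcium channel, and KCNJ13, an inward rectifier potassium channel. PRLR had 491 and 279.6 CPM, compared with 23.6 and 14.4 in the reference. SULF1, which trims sulfate from heparan sulfate outside the cell, had 2203 and 1880.3 CPM, compared with 123 and 96.4 in the reference. Genes of cilia made up another set, ARMC3, SPAG8, CFAP45, CFAP47, CFAP74, DYNLT5 and GMNC, the last a regulator that sets off the making of many centrioles. The pigment enzyme gene TYR was also among the 20. The others were FAM189A2, VWA5B1, the protein-coding gene ENSG00000277639 (chromosome 16 from 53035690 to 53052897) and the long noncoding RNA ENSG00000258312 (chromosome 12 from 98113014 to 98292445).

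The levels of these 20 genes were compared with those in 3 other selections of equal size from the reference, chosen by their own markers. The selections are parts of the reference against which the 20 were picked, so higher levels were to be foreseen and are a description. In nuclei 20 of 20 were at least 4-fold higher than in radial glia-like and 20 of 20 than in neuron-like barcodes, where some were listed at 0. In cells, where none was at 0, they were higher by at least 28.1-fold and 23.1-fold. Against barcodes chosen by cortical hem markers the gap was smaller, 3.5-fold to 7.54-fold in nuclei and 3.39-fold to 11.4-fold in cells. The hem-like barcodes also held HTR2C at 5789 and 2882 CPM. LMX1A and RSPO2, which were above the reference in the choroid plexus epithelium-like barcodes too, were among the markers that chose them. Why the gap was smaller was not tested. Within first-round wells with at least 10 choroid plexus epithelium-like barcodes, 19 of the 20 genes were 4-fold higher in all 8 wells of nuclei, and the 20th, TYR, in 7. In cells 2 of 20 were 4-fold higher in all 9 wells, and TYR was in the fewest, 5. The reference cells of these 9 wells had HTR2C at 546 to 3809 CPM. Some of the 20 gene models overlap others, such as SPAG8 with NPR2 and KCNJ13 with GIGYF2 on the other strand and SLC13A4 with FAM180A on the same one. Whether counting used strand was not stated, so reads of such pairs may not be told apart.

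Genes of ion and water transport were higher in part. Of the 22 listed, 3 of the 19 genes entered for nuclei and 6 of the 20 entered for cells were called higher and 0 lower in either library, against 6.06% and 5.51% of all genes called higher, with median log2 folds of 1.14 and 1.40. KCNJ13 had 56 and 66.9 CPM, compared with 3.25 and 4.17 in the reference. AQP1, the water channel of the apical membrane, had 39.2 and 59.96 CPM, compared with 6.26 and 4.87 in the reference, or 6.26-fold in nuclei and 12.3-fold in cells. CA2, the cytosolic carbonic anhydrase, had 86.6 and 101 CPM, compared with 8.52 and 9.2 in the reference. In cells, the bicarbonate exchanger gene SLC4A2 (4.46-fold) and the carbonic anhydrase gene CA14 (5.43-fold) were among those called as well. Their folds in nuclei were 3.06 and 5.39, the CA14 value below the level for entry. SLC12A2, the sodium, potassium and chloride cotransporter NKCC1, missed the call at 3.82-fold in nuclei and 3.25-fold in cells. The sodium pump subunit gene ATP1B1 missed it at 1.77-fold in nuclei and 1.69-fold in cells, and the bicarbonate transporter gene SLC4A7 was at 0.416 and 0.437 of the reference level. The smallest fold of the list was that of FXYD2, a pump modulator, at 0.329 and 0.283. KCNE2 and FXYD1, known from mature choroid plexus, stayed below entry, with 4.31 and 3.33 CPM for KCNE2.

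For solute, metal and hormone transport, 5 of the 13 genes entered for nuclei and 6 of the 14 entered for cells were called higher, against 6.06% and 5.51% of all genes, with median log2 folds of 1.79 and 1.68. SLC13A4 had 291 and 262 CPM, compared with 16.2 and 13.4 in the reference, and SLC39A12 had 96.9 and 66.4 CPM, compared with 4.4 and 3.55 in the reference. The amino acid transporter gene SLC6A20 had 49.5 and 38.9 CPM, compared with 3.69 and 2.76 in the reference, and the sugar transporter gene SLC2A12 was 5.22-fold in nuclei and 5.97-fold in cells. FOLR1, the folate receptor of the choroid plexus, had 25.1 CPM in cells, 15.5-fold the reference, but 3.88 in nuclei. SLC23A2, a vitamin C transporter, missed the call at 3.45-fold in nuclei and 2.7-fold in cells, and the endocytic receptor gene LRP2 at 3.66-fold in nuclei and 3.81-fold in cells. The thyroid hormone transporter gene SLCO1C1 was below entry, at 1.29 and 5.64 CPM. The efflux pump gene ABCG2 was likewise below entry, at 0.861 and 2.31 CPM.

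Most genes of secreted proteins that entered were higher. Of the 20 listed, 7 of the 10 genes entered for nuclei and 12 of the 15 entered for cells were called higher (all genes 6.06% and 5.51%), with median log2 folds of 2.75 and 3.00. IGFBP7, an insulin-like growth factor binding protein, had 424 and 545 CPM in the 2 sub-libraries of nuclei and 537 ± 97.8 (SD, 8 sub-libraries) in cells, compared with 29.7 and 35.2 in the references. SLIT2, an axon repellent, had 1069 and 962 CPM, compared with 196 and 156 in the reference. SERPINF1, which encodes the factor PEDF, was 10.9-fold in nuclei and 12.3-fold in cells, the coagulation factor gene F5 19.9-fold in nuclei and 13.6-fold in cells, the copper carrier gene CP 8.34-fold in nuclei and 11.3-fold in cells, and ENPP2, which encodes autotaxin, 5.12-fold in nuclei and 6.12-fold in cells. IGF2, a growth factor secreted into cerebrospinal fluid, had 135 CPM in cells, 16.9-fold (95% interval 15.5 to 18.5) the reference, and 10.3 CPM in nuclei, below entry. APOE and CLU, apolipoprotein genes, were likewise high in cells (8.02 and 5.05-fold) and low in nuclei, where APOE had 4.74 CPM and CLU was 1.7-fold. VEGFA (1.88 and 1.26-fold) was not called, and transferrin, TF, was below entry at 0.431 and 2.95 CPM.

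Among channels and receptors, 5 of the 12 genes entered for nuclei and 5 of the 12 entered for cells were called higher and 1 lower in each. Of all genes, 6.06% and 5.51% were called higher and 7.24% and 3.88% lower, so 1 lower gene is near the background. Higher were TRPM3, PRLR, TRPV4 and GHR, the growth hormone receptor (7.86-fold in nuclei and 8.21-fold in cells), in both libraries. FZD6, a WNT receptor, was called in nuclei (4.68-fold, 3.67 in cells) and EGFR in cells (6.45-fold, 3.53 in nuclei). Receptors for insulin and its relatives were near the reference, INSR at 1.01 and 0.91 and IGF1R at 0.757 and 0.699. BMPR1B was the gene called lower, at 16.4 and 16.8 CPM, compared with 94.5 and 72.9.

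Motile cilium genes were higher throughout. All 16 genes entered for nuclei and all 17 entered for cells were called higher, against 6.06% and 5.51% of all genes, with median log2 folds of 3.58 and 3.6. The list was chosen with earlier results known and holds ARMC3, a leading gene named above, so these counts are a description. Axonemal dynein genes were DNAH9, with 364 and 323 CPM, compared with 24.1 and 26.9 in the reference, DNAH11, with 544 and 444 CPM, compared with 51.5 and 44.4 in the reference, and DNAH5 (9.15-fold in nuclei and 9.93-fold in cells). The central pair gene HYDIN had 758 and 545 CPM, compared with 84.1 and 48.9 in the reference, and SPAG6 and SPAG17, which also belong to the central pair, were 12.6 and 12.2-fold in nuclei and 12.1 and 16-fold in cells. The smallest folds in nuclei and in cells were those of DNAI1 (5.48) and CCDC40 (6.23). ARMC3 had 781 and 785 CPM in the 2 sub-libraries of nuclei and 483 ± 52.6 (SD, 8 sub-libraries) in cells. FOXJ1, the main switch for motile cilia, had a low level in both, at 36.3 CPM in cells and 9.48 in nuclei. In cells this level was 14.2-fold the reference. CFAP126 stayed below entry. After thinning, at least 3 of the 18 genes were detected in 72% (66 to 77.5) of nuclei and 64% (59.1 to 68.7) of cells, compared with 10% (6.58 to 14.4) of nuclei and 15% (11.6 to 18.9) of cells among hem-like, 0.4% (0.0101 to 2.21) of nuclei and 1% (0.273 to 2.54) of cells among radial glia-like and 0% (0 of 250, with an exact upper limit of 1.46%) of nuclei and 0.25% (0.00633 to 1.39) of cells among neuron-like barcodes.

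Since these genes were called higher together, promoters of the list are shown. RFX factors, which act on cilium genes, bind a motif built from 2 arms, of which 1 reads GTTGCC. RefSeq promoters of GRCh38.p14, 250 bases before to 50 after each start, were found for 13 of the 18 genes, and 5 held these letters on either strand (DNAI1, SPAG6, CCDC39, TEKT1 and CFAP126). Of all 27305 promoters of that length, 12.2% held them, as did 22.2% of the 369 found for genes called higher in both libraries and 9.93% of the 282 for genes called lower in both. The letters TAATCC, a core read by OTX2, were in 6.39% of all promoters and in 5.96% and 7.45% of these 2 sets. A match describes letters and is not a binding site. Of the cilium genes entered in both libraries, SPAG6 (chr10:22345246-22345545, plus strand) and TEKT1 (chr17:6831680-6831979, minus strand) had the match nearest to the start, at positions -24 and -47 from it. They are printed 5′ to 3′ with the match in capitals, which in TEKT1 is the reverse complement GGCAAC.
SPAG6: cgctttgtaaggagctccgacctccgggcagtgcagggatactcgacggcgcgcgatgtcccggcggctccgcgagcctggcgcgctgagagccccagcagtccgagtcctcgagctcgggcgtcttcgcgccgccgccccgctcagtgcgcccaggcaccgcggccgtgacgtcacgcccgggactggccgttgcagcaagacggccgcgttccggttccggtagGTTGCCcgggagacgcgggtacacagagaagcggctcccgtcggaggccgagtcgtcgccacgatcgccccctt
TEKT1: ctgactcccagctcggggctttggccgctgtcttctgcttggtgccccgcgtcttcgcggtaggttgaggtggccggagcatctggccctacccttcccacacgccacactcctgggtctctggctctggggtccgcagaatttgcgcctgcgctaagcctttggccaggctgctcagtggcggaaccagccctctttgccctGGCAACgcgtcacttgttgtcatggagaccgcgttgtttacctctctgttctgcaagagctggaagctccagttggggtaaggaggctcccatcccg

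**Figure D3:**
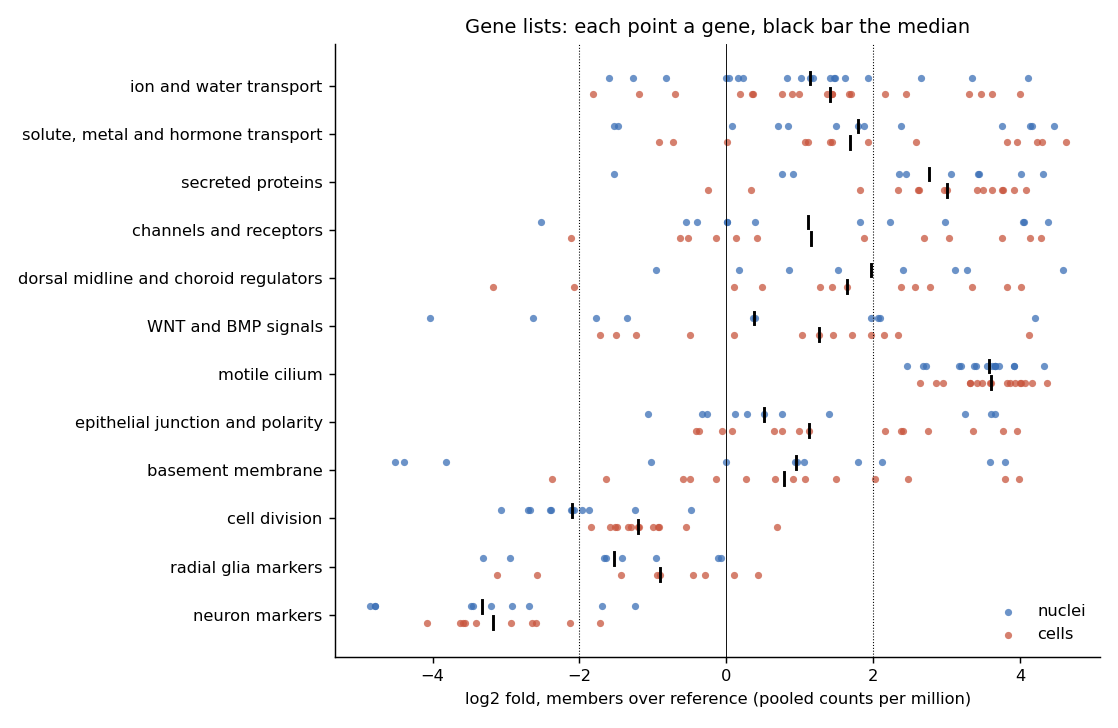
Log2 fold of choroid plexus epithelium-like over reference barcodes (horizontal axis) for every gene entered of 12 gene lists (rows), with nuclei in blue, cells in red, a black bar at each median and dotted lines at 4-fold. Motile cilium genes lie to the right of 4-fold throughout, the transport lists spread from below 0 to above 4, and cell division genes have a median of -2.11 in nuclei and -1.20 in cells.

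For regulators of the dorsal midline and the choroid plexus, 4 of the 8 genes entered for nuclei and 6 of the 13 entered for cells were called higher, where 6.06% and 5.51% of all genes were. LMX1A, a midline factor, had 575 and 601 CPM in the 2 sub-libraries of nuclei and 325 ± 38.3 (SD, 8 sub-libraries) in cells, compared with 67.6 and 32.3 in the references. GMNC and TP73, which act in multiciliated cells, were 23.9 and 9.71-fold in nuclei and 16.1 and 6.84-fold in cells. The zinc finger gene ZIC1 was 5.32-fold in nuclei and 5.22-fold in cells. MSX1, a target of BMP signals, was called in cells (5.93-fold, 63.3 CPM) and had 7.32 CPM in nuclei. RFX2 and RFX3 were not called, at 2.86 and 1.8-fold in nuclei and 3.11 and 1.4-fold in cells. Called lower in cells were OTX1 (0.236) and the Notch target HES5 (0.11). HES5 had 0 counts in the 250 nuclei, while its reference stood at 8.92 CPM.

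Of WNT and BMP signals, 3 of 10 entered were called higher and 2 lower in nuclei, and 3 of 13 higher and 0 lower in cells, where 6.06% and 5.51% of all genes were called higher and 7.24% and 3.88% lower. BMP4 was 18.5-fold (95% interval 12.8 to 26.5) in nuclei and 17.3-fold (95% interval 14.3 to 21) in cells, at 22.8 and 29.9 CPM, and hem-like barcodes had 0.958 and 6.2 CPM. BMP7 stood near the limit at 4.2-fold in nuclei and 3.92-fold in cells. RSPO2, a WNT amplifier of the hem, had 520.3 and 434 CPM, compared with 133 and 86.2 in the reference (3.9-fold in nuclei and 5.04-fold in cells), and its relative RSPO3 had 1.72 and 6.15 CPM, compared with 28.2 and 20.3 in the reference. The hem-like barcodes, for which both genes were markers, had 2414 and 633 CPM of RSPO2 and 354 and 124 of RSPO3. Of 4 cortical hem markers entered, 1 was called higher and 1 lower in nuclei, and 2 were called higher and 0 lower in cells, beside 6.06% and 5.51% of all genes higher and 7.24% and 3.88% lower. WNT8B and WNT3A, the other hem ligands, were below entry, at 0 and 2.95 CPM and 2.15 and 1.41 CPM. WNT2B had 12.5 and 50.5 CPM, compared with 31.8 and 46.9 in the reference. The WNT effector gene LEF1 was at 0.292 and 0.427 of the reference, and ID4 was called lower in nuclei (0.161, 0.352 in cells). RSPO1 was called higher in cells (4.43-fold), but with a score built without HTR2C it was below the reference, at a log2 fold of -0.39.

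Of the 20 genes of epithelial junctions and polarity, 3 of the 11 genes entered for nuclei and 7 of the 15 entered for cells were called higher, compared with 6.06% and 5.51% of all genes, with median log2 folds of 0.51 and 1.12. CLDN1, a tight junction claudin, was 12.1-fold in nuclei and 10.3-fold in cells, and occludin, OCLN, 12.6-fold in nuclei and 6.72-fold in cells. CLDN5 had 56.8 CPM in cells (15.6-fold) and 2.58 in nuclei, and keratin KRT18 had 22.3 and 3.88. CLDN1 and OCLN in nuclei and CLDN5 in cells had reference levels below 4 CPM, so their calls were fixed by entry. The adherens junction gene CDH2 was at 0.791 and 0.774 of the reference and CDH1 was below entry at 0.431 and 6.41 CPM. In the basement membrane list, 3 genes were called higher and 3 lower of 12 entered in nuclei, and 4 higher and 1 lower of 14 in cells, beside the same shares of all genes higher and 7.24% and 3.88% lower. LAMB1, a laminin chain, had 1159 and 899 CPM, compared with 96.4 and 64.8 in the reference, NID2, a nidogen, was 13.9-fold in nuclei and 15.8-fold in cells, and COL18A1, which encodes collagen XVIII, 4.33-fold in nuclei and 5.54-fold in cells. Collagen IV chains differed: COL4A5 and COL4A6 were 1.95 and 1.92-fold in nuclei and 1.88 and 2.11-fold in cells, whereas COL4A2 was lower, with 8.18 and 29.5 CPM, compared with 186 and 152 in the reference. COL4A1 was called lower in nuclei (0.0475) and was at 0.322 in cells.

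Markers of the retinal pigment epithelium were examined because it shares OTX2 and other genes with the choroid plexus. Of the 12 listed, 4 were entered in nuclei and 4 in cells, and all of them, TYR, RPE65, MITF and SERPINF1, were called higher, where 6.06% and 5.51% of all genes were. TYR, the enzyme that starts melanin synthesis, had 188 and 79.4 CPM, compared with 9.72 and 4.69 in the reference, with sub-libraries of cells from 17.2 to 128 CPM. RPE65, the isomerase of the visual cycle, had 61.2 and 96.5 CPM, compared with 3.9 and 5.31 in the reference. In nuclei RPE65 was below 4 CPM in the reference and could enter only as called higher. The pigment cell factor MITF had 589 and 270.5 CPM, compared with 76.3 and 41.1 in the reference. Other defining genes of that epithelium were at or near 0: RLBP1 had 0 and 1.02 CPM, LRAT 3.02 and 2.56, BEST1 1.29 and 7.3, DCT 2.15 and 2.31, and the early eye gene RAX 0.431 and 2.18. TYRP1 (11.2 and 9.74 CPM) and PMEL (14.2 and 8.71) were below entry. TYR was seen in 88 of the 250 nuclei and not in 162, and 296 of the 400 cells lacked it. Barcodes with TYR were deeper, at medians of 10791 and 22468 transcripts, compared with 6890 and 12102. TYR and RPE65 were seen together in 41 nuclei and 77 cells.

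Some genes known from stroma and vessels were high too. Of 8 stromal markers, 2 of 2 entered were called higher in nuclei and 4 of 4 in cells, and of 8 endothelial markers 1 of 1 and 2 of 2, against 6.06% and 5.51% of all genes. PDGFRA had 136 and 136 CPM, compared with 10.1 and 8.15 in the reference, PDGFRB 112 and 109 CPM, compared with 16.8 and 13.6 in the reference, and KDR, a VEGF receptor, 50.8 and 67.6 CPM, compared with 3.83 and 3.74 in the reference. The collagen I genes COL1A1 and COL1A2 were called in cells, with 20.5 and 17 CPM, compared with 3.44 and 3.5 in the reference, and had 5.6 and 8.18 in nuclei. CLDN5, named above among junction genes, is also an endothelial marker. KDR in both libraries, and COL1A1, COL1A2 and CLDN5 in cells, had reference levels below 4 CPM. Such genes could enter only as called higher, so their calls were fixed by entry and add nothing to the counts above. Of the others, COL3A1 had 0 and 0.256 CPM, LUM 0 and 0.128, PECAM1 1.29 and 3.46 and CDH5 0 and 0.384. PDGFRA was seen in 129 of the 250 nuclei and 256 of the 400 cells before thinning. Summed over the whole lists, stromal markers had 262 and 289.6 CPM, compared with 36.7 and 34.6 in the references, and endothelial markers 57.7 and 136, compared with 8.66 and 23.7.

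Neuron markers were mostly called lower. Of the 10 neuron markers, 8 were called lower in nuclei and 9 in cells, against 7.24% and 3.88% of all genes. STMN2 had 2.58 and 11.5 CPM, compared with 74.6 and 142 in the reference, and GRIA2, a glutamate receptor subunit, had 25.8 and 23.8 CPM, compared with 238 and 285 in the reference. SYT1 was the one marker above 200 CPM in both, at 317 and 209.7, compared with 1026 and 918. Of the 10 radial glia markers, 2 of 8 entered were called lower in nuclei and 2 of 9 in cells, so that most were not called, where 7.24% and 3.88% of all genes were. PAX6 had 14.2 and 27.4 CPM, compared with 142 and 164 in the reference, GLI3 was at 0.32 and 0.37 of the reference, and EMX2 was near it, at 0.924 and 1.35. The intermediate progenitor gene EOMES had 0.431 and 1.92 CPM. The 10 genes with the lowest folds among those above 50 CPM in both references included ARPP21, GRIK3, ZEB2, ST18, PDE1A, ELAVL4, KCNH7, PHACTR3 and GAP43. GAP43, a growth cone protein, had 3.02 and 9.87 CPM, compared with 142 and 127 in the reference. These 10 lay at 0.0212 to 0.0697 of the reference in nuclei and 0.0562 to 0.0779 in cells. With at most 10% mitochondrial transcripts and the cells refilled by score, 4 of the 10 stayed 4-fold lower in cells, and all genes called lower there fell from 453 to 73. With a score without HTR2C they were 208. The inhibitory neuron gene GAD1 did not share this direction, with 49.96 and 19.2 CPM, compared with 17.5 and 9.48 in the reference, while DLX1, DLX2 and DLX5 were all below 1 CPM.

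Most cell division genes entered were called lower in nuclei, and none in cells. In nuclei 8 of 12 genes entered were called lower, and in cells 0 of 13, against 7.24% and 3.88% of all genes, with median log2 folds of -2.11 and -1.20. MKI67 had 19 and 74.4 CPM, compared with 159 and 223 in the reference, and TOP2A had 17.7 and 48 CPM, compared with 93.6 and 135 in the reference. These pooled levels were uneven over the score that chose the barcodes, which is given as a description. The 200 cells with the higher scores had 35 CPM of MKI67 and 23.4 of TOP2A, and the 200 nearer the limit had 119 and 75.9. In nuclei split the same way, MKI67 had 9.72 and 29.4 CPM and TOP2A 4.05 and 33.1. The difference between the libraries was not tested. After thinning, at least 2 of the 15 genes were found in 7.6% (4.64 to 11.6) of nuclei and 18% (14.4 to 22.1) of cells, compared with 20.4% (15.6 to 25.9) of nuclei and 50% (45 to 55) of cells among radial glia-like barcodes and 1.2% (0.248 to 3.47) of nuclei and 4.75% (2.88 to 7.32) of cells among neuron-like ones. Hem-like barcodes lay nearer: summed over the list they had 586 CPM in nuclei and 1024 in cells, compared with 279 and 548 in the chosen and 1146 and 1274 in the reference.

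At equal depth the choroid plexus epithelium-like barcodes were compared with the hem-like, radial glia-like and neuron-like ones gene by gene. Not every selection is given here for each gene. PRLR was detected in 38.8% (32.7 to 45.1) of nuclei and 30.5% (26 to 35.3) of cells, compared with 4% (1.93 to 7.23) of nuclei and 6.25% (4.09 to 9.09) of cells of hem-like, and in 0% (0 of 250, with an exact upper limit of 1.46%) and 1.5% (0.552 to 3.24) of radial glia-like barcodes. IGFBP7 was detected in 43.2% (37 to 49.6) of nuclei and 51.8% (46.7 to 56.7) of cells, compared with 0% (0 of 250, with an exact upper limit of 1.46%) and 2.25% (1.03 to 4.23) of neuron-like barcodes. TTR itself was found in 24.2% (20.1 to 28.8) of radial glia-like and 24% (19.9 to 28.5) of neuron-like cells, and HTR2C in 26.2% (22 to 30.9) and 18% (14.4 to 22.1), which is the level against which both genes are to be read in cells. In nuclei TTR was found in 1.6% (0.438 to 4.05) and 0.4% (0.0101 to 2.21), and HTR2C in 13.2% (9.26 to 18) and 14.8% (10.6 to 19.8). STMN2 was detected in 1.2% (0.248 to 3.47) of nuclei and 1.75% (0.706 to 3.57) of cells, compared with 2.4% (0.886 to 5.15) of nuclei and 13.5% (10.3 to 17.2) of cells among hem-like barcodes. Before thinning, median depths were 8469.5 transcripts in choroid plexus epithelium-like nuclei, 5769 in hem-like, 3819.5 in radial glia-like and 5412 in neuron-like nuclei. For cells they were 13498, 14160, 9638 and 11344.

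**Figure D4:**
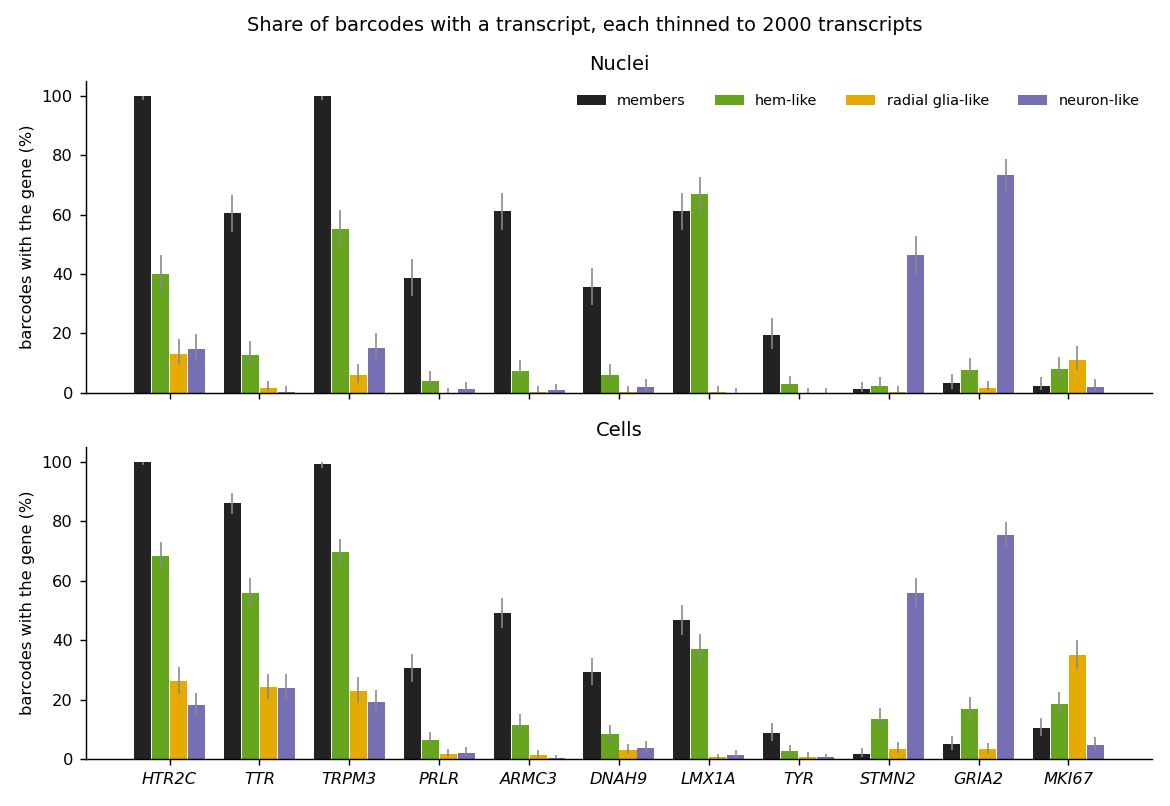
Share of barcodes with at least 1 transcript of each gene (vertical axis, percent, bars from 0, lines for 95% exact binomial intervals) after thinning each barcode to 2000 transcripts, for choroid plexus epithelium-like barcodes (members) and 3 selections of equal size, with nuclei above and cells below. HTR2C and TTR chose the members, LMX1A chose the hem-like and STMN2 and GRIA2 the neuron-like barcodes. PRLR and ARMC3 stand out in the members, at 38.8% and 61.2% of nuclei.

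Genes whose fold differed most between the libraries are named next. Among genes with at least 50 CPM in the chosen or the reference barcodes of both, the fold was larger in nuclei by most for LINC00276, NRG1, KCTD16, STEAP1B and PDE1C. LINC00276, a long noncoding RNA, was 12.2-fold in nuclei and 2.71-fold in cells, and NRG1, the growth factor neuregulin 1, had 2083 and 729 CPM, compared with 599 and 737 in the reference. The fold was larger in cells by most for CLMP, SYN3, LAMA1, XKR4 and GALNTL6, which were at 0.0149, 0.0305, 0.0711, 0.0304 and 0.0463 of the reference in nuclei and at 0.176, 0.29, 0.666, 0.25 and 0.336 in cells. LAMA1, a laminin chain, had 5.17 and 38.7 CPM, compared with 72.7 and 58.1 in the reference. The libraries also differ in age, condition, depth and in what was isolated, which cannot be told apart.

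The choroid plexus epithelium-like cells held more mitochondrial transcripts than the rest. Their median share was 7.88% (quartiles 4.94 and 12.4), compared with 2.14% in the reference, 3.96% in hem-like and 1.76% in neuron-like cells, and it was higher than the reference of the same well in 8 of 9 wells. MT-CO1, a subunit of cytochrome oxidase, had 3883 CPM, compared with 652, and MT-ND5 had 5158, compared with 958. In nuclei the median share was 0.0286%, below the 0.0885% of the reference, while the pooled share was 0.703%, compared with 0.365%. Without the 149 chosen cells above 10% and the reference cells above it, 637 genes were called higher and 368 lower in cells. When they were replaced by the next in score, down to 83.7 marker counts per 10000, the lower calls were 73. Of 8 immediate-early genes, known to respond to dissociation, 0 were called higher in cells, with a median log2 fold of 0.13, and of the 12 genes of glycolysis and hypoxia 0 were, at 0.00. With 5.51% of all genes called higher in cells, 0 in lists of this size is near the background.

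The barcodes were spread unevenly over the first-round wells, whose conditions are not known here. In nuclei all 12 wells held some, at 0.659% to 5.88% of passing nuclei with a median of 1.94%. Well 10 alone held 99 of the 250, 4.57% (3.73 to 5.54) of its 2164 passing nuclei. In cells 39 of 48 wells held some. Over the 35 wells with at least 50 passing cells, the share ran from 0% to 32.4% with a median of 3.16%. Well 42 had the highest share, 32.4% (23.7 to 42.1), followed by well 48 at 21.6% (17.4 to 26.4). Wells 46, 47 and 48 together gave 177 of the 400 cells, 44.2%, from 19.8% of the passing cells. Sub-libraries differed far less, with 2.14% and 2.26% in nuclei and 6.001% ± 0.983 (SD, 8 sub-libraries) in cells. Levels varied between wells as well. Over the 9 wells with at least 10 such cells, TTR ran from 1108 to 9003 CPM with a median of 4709. HTR2C, the largest part of the score that ranked the barcodes, ran from 13267 to 19019. RSPO2 ran from 181 to 1036 CPM and TYR from 5.47 to 208 CPM over the same wells, and TRPM3 from 4768 to 7462.

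**Figure D5:**
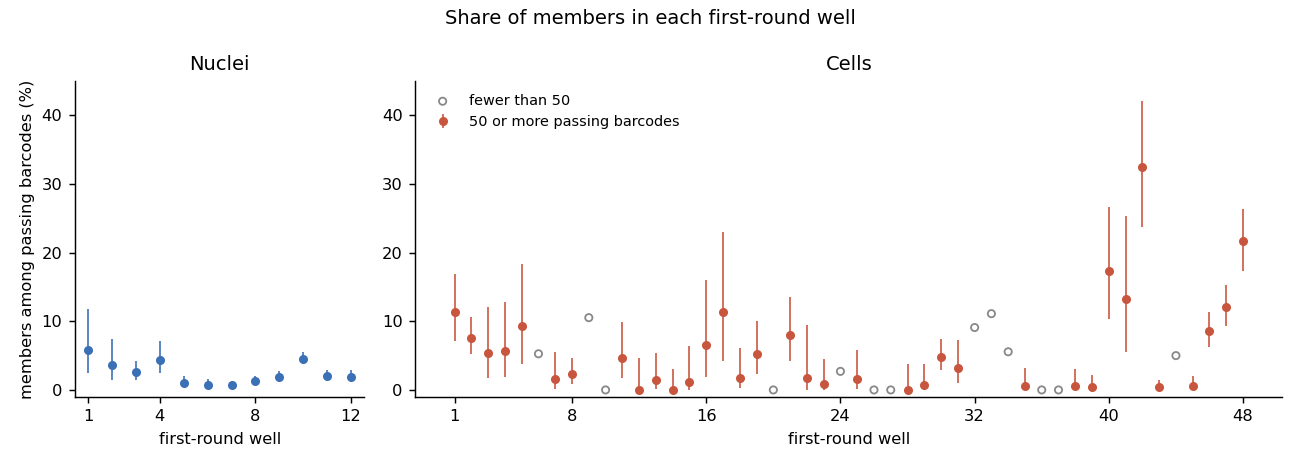
Share of passing barcodes that were choroid plexus epithelium-like (vertical axis, percent, with 95% exact binomial intervals) in each first-round well (horizontal axis), for 12 wells of nuclei and 48 of cells, with open circles for wells of fewer than 50 passing barcodes. Wells 42 and 48 of the cells stand highest, at 32.4% and 21.6%, and the wells of nuclei stay at or under 5.88%.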

How the data were processed

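The 2 libraries were processed by the authors, who split reads into 8 and 2 sub-libraries, aligned them to GRCh38 with the Parse Biosciences pipeline and deposited, for each library, a matrix of whole-number counts of transcripts by gene and barcode with 1 metadata row per barcode. The matrices hold all barcodes, and the depth limits used here come from the rule that chose the barcodes. The authors' later steps of doublet calling and removal of contaminating RNA were not applied to these counts. Scores and groups were made as described above. Counts were summed over the barcodes of a group and divided by the total of the group, and folds are ratios of these levels. Where a group had 0 counts, 3 counts were used as a floor. Intervals of folds came from the exact conditional binomial and those of shares from the Clopper-Pearson method. Hem-like, radial glia-like and neuron-like barcodes were the 250 nuclei or 400 cells of the reference that scored highest on their own markers. For detection, transcripts were drawn without replacement with a fixed seed. Genes were named by a rule: the 6 markers, 2 to 6 genes of each list, 20 leading genes higher and 10 lower in both libraries, and 5 and 5 whose folds differed most between libraries, and other list members were named after their values were seen. The members and the gene lists were chosen with earlier results of these data known. Scrublet, run in scanpy 1.11.5, marked 0 barcodes in either library and removed none from the main results. As an alternative, the 341 nuclei and 339 cells with its highest scores, 2 and 14 of them chosen ones, were left out. The calling of folds, their intervals and the thinning were tested on simulated counts, and the choice of barcodes was not. Calculations ran in scipy 1.17.1, pandas 2.3.3 and numpy 2.4.6 under Python 3.11.15, and plots were drawn with matplotlib 3.10.9. Gene symbols and positions are those of the deposited gene tables and the reference annotation. Some items that the rule names are not reported here.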

Additional observations from a re-analysis of the deposited data

Results flagged for a closer look

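Below the depth limits lay further barcodes with at least 3 of the 6 markers and a score at or above that of the last barcode chosen. They numbered 13 of 4268 nuclei and 856 of 36369 cells with over 500 transcripts, and they entered none of the comparisons above. At such depths 3 markers are a small number of counts, and what these barcodes hold was not tested.

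In the choroid plexus epithelium-like cells, 4 genes had 1 sub-library that stood apart from the other 7, among 27 groups of sub-libraries looked at, by a limit (the 95% critical value of Dixon) that chance passes in about 1 in 20 groups. TTR had 7747.3 CPM in sub-library 7 and 3875 to 4492.4 in the others. A single cell gave 1468 of the 7044 TTR counts there, and without it the level was 6683.3. SLC17A8 had 279.36 CPM in the same sub-library, compared with 86 to 163 in the others, and KCNJ13 had 136.38, compared with 25.1 to 75.4. Without the cell that held most of each, these were 249.08 and 117.48. CFAP47 had 620.31 CPM in sub-library 3, compared with 283 to 440.5, and 1 cell gave 205 of its 396 counts. Without that cell the level was 319.58, within the range of the other 7. Sub-libraries 7 and 3 held 38 and 39 of the 400 cells. They are technical divisions of 1 library, and why they differed was not tested.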

How the results depend on the processing

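The results are ratios without replicates, so an alternative is read by how far it moved a count or a value. The filter on low genes set the counts. Without it 17066 genes were called higher and 1587 lower in nuclei, 13349 and 1403 in cells and 5771 and 613 in both. A gene with 0 counts in the chosen barcodes then took the floor of 3 counts and could be called higher over a reference of few counts. The median log2 fold rose to 1.16 in nuclei and 0.34 in cells. How many calls the floor made was not counted, so these are no numbers of genes that were higher. With a mean of at least 50 CPM the counts were 299 and 313, 270 and 235, and 215 and 200. With at most 10% mitochondrial transcripts, which replaced 149 cells by others of lower score, 73 genes were called lower in cells and 58 in both, the fullest well held 26.75% of the cells, compared with 18.5%, and at least 3 cilium genes were detected in 50.75% of cells. With a score without HTR2C, an alternative chosen after seeing the data, 208 genes were called lower in cells and 189 in both, and the log2 fold of RSPO1 in cells turned to -0.38683. The causes were not tested. When the number chosen was cut to 200 cells and in proportion for nuclei, 50.4% of the nuclei came from the fullest well, compared with 39.6%. Thinning to 1000 transcripts gave 55.2% of nuclei and 43.75% of cells with at least 3 cilium genes, and no thinning 86.4% and 92%. Leaving out the fullest well, or the barcodes above 10% mitochondrial transcripts with none added, both chosen after seeing the data, kept the counts of calls within 1.5 times, as did thinning before summing, means over barcodes, a reference without markers, 4 markers, doublet scores, subtraction of 10% of the background profile, scaling without mitochondrial and marker genes, and a score without TTR. Without each sub-library in turn, 645 to 658 genes were called higher in nuclei and 639 to 666 in cells. The 20 leading genes stayed at least 4-fold higher in each library under every alternative run. The 10 lowest stayed 4-fold lower, except that 4 of 10 did in cells with at most 10% mitochondrial transcripts. Both sets were picked for their folds in these same barcodes, so this is a description and no support for them. No paired analysis was possible because the labels give no replicate numbers within a library, and chosen and reference barcodes of the same wells were compared as a description. Genes with a mean below 10 CPM were left out by the filter, which is a choice and not a limit of depth. For a gene at 0 counts, absence cannot be told from low level.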
